A study of Mus musculus with 6 samples.

Results

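The Cyp4 fatty acid omega-hydroxylases are a family of cytochrome P450 enzymes, and the genes described here are Cyp4a10, Cyp4a12a, Cyp4a14, Cyp4b1, Cyp4f13, Cyp4f14, Cyp4f15 and Cyp4v3. They were chosen by name as members of the family, with earlier results of these data known, and a probe set was counted for a member only when the platform annotation gave it that gene symbol and no other. Of the 8 members, 7 had such a probe set, among 12393 genes measured in all, and Cyp4a10 had none of its own. RNA of primary mouse hepatocytes, the parenchymal cells of the liver, was measured on 6 Affymetrix arrays, 3 of cells from Alb/AEG-1 mice and 3 of cells from wild-type (WT) mice. The Alb/AEG-1 line is transgenic and makes extra AEG-1, the protein of the gene Mtdh, in hepatocytes. By its name and in common usage, Alb stands for the promoter of the albumin gene, which is active in hepatocytes. Both genotypes were of a mixed B6/CBA strain, both were cultured on collagen, both received no treatment, and both were collected 24 h after plating, so all values are of cultured cells. Age, sex, the number of transgenic founder lines and the number of animals behind each array were not stated in the sources at hand. Replicates are labelled biological, but separate animals or cultures are not specified, so p-values reflect only the spread among these samples, which may be technical.

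Cytochrome P450 enzymes of the Cyp4 family add a hydroxyl group to the end of a fatty acid that is farthest from its carboxyl group, the omega end. Alcohol and aldehyde dehydrogenases then turn the product into a dicarboxylic acid, which peroxisomes shorten by beta-oxidation. In the rodent liver the Cyp4a genes are classical targets of PPARA, the nuclear receptor that senses fatty acids in hepatocytes, whereas Cyp4f enzymes also act on leukotrienes and other signalling lipids. Cyp4b1 and Cyp4v3 are further members of the family, and CYP4V2, the human counterpart of Cyp4v3, is known as the gene mutated in a crystalline retinal dystrophy. The comparison of genotypes asks how these genes differ in hepatocytes with extra AEG-1.

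The sequences just upstream of members that moved in opposite directions, and of a neighbour that did not pass, are shown so that the sites looked for in them can be seen. RefSeq promoter sequence (assembly GRCm38.p6) was at hand for 5 of the 8 members, at 8 transcription start sites, and it held no entry for Cyp4a10, Cyp4a12a or Cyp4a14. Of these 8 starts 4 belong to Cyp4f14, whose windows overlap, so the 8 windows are not separate promoters. Each sequence is the 250 bases that end just before the annotated start site, on the strand of the gene. Cyp4f15, lower in transgenic cells, has its window at chr17:32685409-32685658 on the plus strand. Cyp4f13, a relative on the same chromosome that did not pass the test, has its window at chr17:32947362-32947611 on the minus strand. Cyp4v3, higher in transgenic cells, has its window at chr8:45333164-45333413 on the minus strand. Capitals mark matches to TTCNNNGAA, the pattern bound by STAT5, or to AGGTCA, the core element of nuclear receptor sites.
Cyp4f15: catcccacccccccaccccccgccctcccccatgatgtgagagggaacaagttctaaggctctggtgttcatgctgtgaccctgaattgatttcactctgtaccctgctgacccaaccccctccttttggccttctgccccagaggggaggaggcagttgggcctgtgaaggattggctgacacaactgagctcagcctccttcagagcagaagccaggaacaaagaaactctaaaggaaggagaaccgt
Cyp4f13: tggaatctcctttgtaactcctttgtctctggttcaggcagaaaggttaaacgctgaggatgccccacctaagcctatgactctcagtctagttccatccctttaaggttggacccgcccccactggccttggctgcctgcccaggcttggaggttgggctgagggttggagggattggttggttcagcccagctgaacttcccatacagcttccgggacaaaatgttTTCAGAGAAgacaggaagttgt
Cyp4v3: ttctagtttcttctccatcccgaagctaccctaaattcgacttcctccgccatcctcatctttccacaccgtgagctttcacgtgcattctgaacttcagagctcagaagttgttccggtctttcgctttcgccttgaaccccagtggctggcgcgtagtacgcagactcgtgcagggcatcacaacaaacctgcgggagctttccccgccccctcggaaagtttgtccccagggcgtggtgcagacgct
Both strands were searched. TTCNNNGAA occurred in 2 of the 8 member windows, as TTCAGAGAA in Cyp4f13 from 22 to 14 bases before the start and as TTCTATGAA in Cyp4b1 from 187 to 179 bases before it, and in 7.02% of 32851 promoter windows of the same length. AGGTCA was found in 0 of the 8 windows and in 14.0% of all windows. PPARA binds with its partner RXRA to a pair of AGGTCA elements that follow each other 1 base apart. Such an exact pair was in 0 of the 8 windows and in 0.0335% of all. A looser pair, AGGNCA in both elements, was also in 0 of the 8 and in 0.338% of all. These are matches of letters in a short window. The G and C content of the printed windows was 56.4% for Cyp4f15, 52.8% for Cyp4f13 and 55.6% for Cyp4v3, against a median of 52.4% and quartiles of 45.2% and 61.2% over all windows.

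Of the 7 members with a probe set of their own, 2 fell in transgenic hepatocytes (Cyp4a14 and Cyp4f15), 1 rose (Cyp4v3) and 4 did not pass limma's test at an adjusted p of 0.05. Over all 12393 genes, 9.05% fell (1121 genes) and 6.83% rose (846 genes). The values of the genotypes did not overlap in 5 of the 7 members, namely Cyp4a12a, Cyp4a14, Cyp4b1, Cyp4f15 and Cyp4v3, against 34.5% of all genes. The median difference of the members, transgenic minus wild type, was 0.07 on the log2 scale, close to the 0.01 of all genes. The family thus showed no common direction, and the differences ran from -3.20 for Cyp4a14 to 0.27 for Cyp4v3. All values below are log2 signals as deposited, each gene is given by its brightest probe set, and differences are transgenic minus wild type with a standard error (SE) from limma. Levels of different genes are not compared, because each probe set has its own response.

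**Figure D1:**
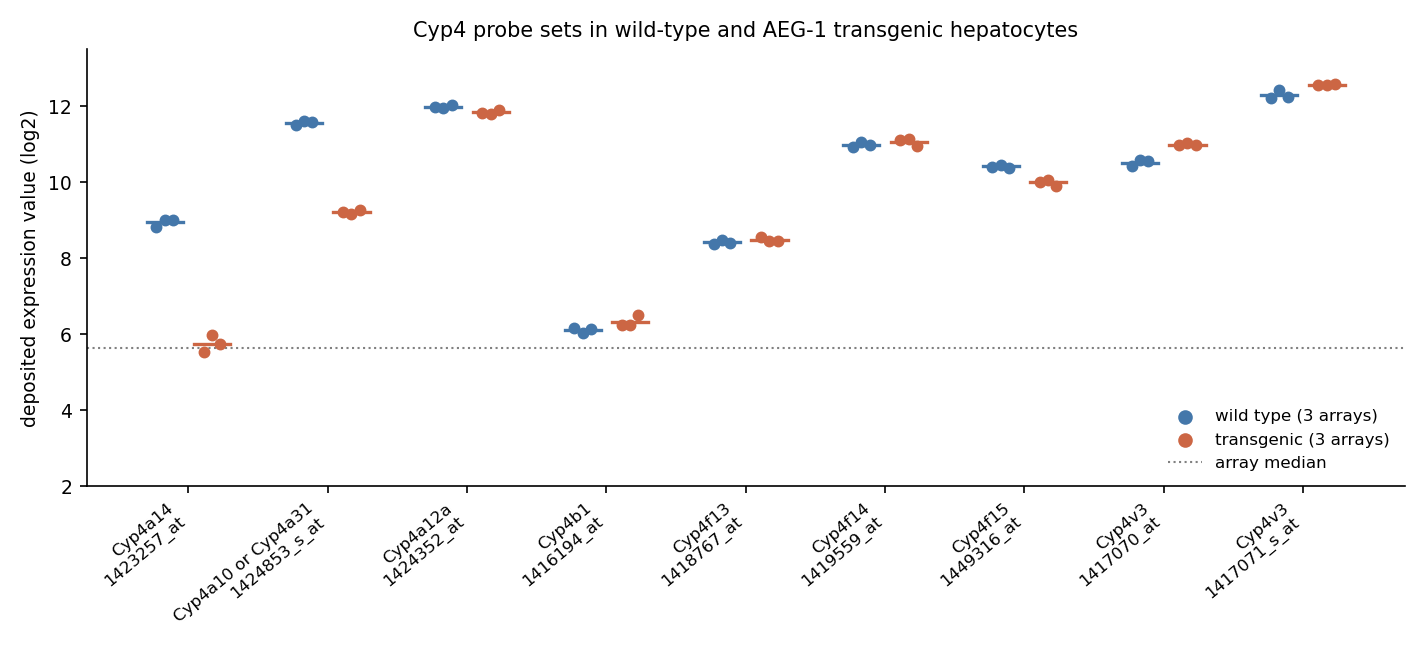
Log2 signal of each Cyp4 probe set on the 6 arrays, with points for single arrays of the 3 transgenic and 3 wild-type samples a bar at each genotype's mean and a dotted line at the array median. Cyp4a14 sits at 5.52 to 5.99 in transgenic and at 8.83 to 9.02 in wild-type cells, while for Cyp4f13 and Cyp4f14 the points of the genotypes overlap.

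Cyp4a14, an omega-hydroxylase of medium and long chain fatty acids, had the largest difference of the family. It was read by 1 probe set (1423257_at), with 8.83, 9.001 and 9.02 in the wild-type and 5.52, 5.99 and 5.75 in the transgenic samples. Every transgenic value lay below every wild-type value, with 2.85 between the nearest. The means were 8.95 ± 0.10 in wild-type and 5.75 ± 0.23 in transgenic cells (SD, n = 3 per genotype). Cyp4a14 fell by 3.20 (SE 0.12, 95% confidence interval of the difference -3.46 to -2.93), which is 9.18-fold, with a limma adjusted p of 2.58e-06. It ranked at place 3 by decrease among the 12393 genes, of which 3 fell at least 8-fold, 7 at least 4-fold and 44 at least 2-fold. The transgenic values were close to the middle of each array, whose medians lay between 5.61 and 5.64, and transgenic replicate 1 was below its array's median. Array values compress differences at such low signal. In bulk RNA, fewer cells of a type and less RNA per cell cannot be told apart.

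Cyp4a10, the classical PPARA-induced omega-hydroxylase of mouse liver, could not be read alone. The only probe set that names it, 1424853_s_at, is annotated to both Cyp4a31 and Cyp4a10, and its signal is assigned to neither here. It gave 11.51, 11.60 and 11.58 in the wild-type and 9.21, 9.16 and 9.27 in the transgenic samples. The genotypes were 2.24 apart at their nearest samples, and the spread within each was small, with means of 11.57 ± 0.05 and 9.22 ± 0.05 (SD, n = 3 each). The difference was -2.35 (SE 0.06, 95% confidence interval -2.49 to -2.21), which is 5.10-fold lower, with a limma adjusted p of 6.58e-07 in the fit of all 22626 probe sets. In that fit 6.66% of probe sets fell and 5.33% rose. Cyp4a31 also had a probe set of its own, 1424943_at, with 3.02, 3.06 and 2.997 in wild-type and 2.91, 3.38 and 2.84 in transgenic cells. These values overlapped and lay under the array median on all 6 arrays, with a difference of 0.02 (SE 0.13) and an adjusted p of 0.951 among genes.

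Cyp4a12a, the main omega-hydroxylase of arachidonic acid in male mice, was close to level between the genotypes. Its probe set, 1424352_at, gave 11.97, 11.95 and 12.05 in the wild-type and 11.81, 11.80 and 11.90 in the transgenic samples. The transgenic values all lay below the wild-type values, but by a small margin, with means of 11.84 ± 0.06 and 11.99 ± 0.05. The difference of -0.15 (SE 0.06, 95% confidence interval -0.29 to -0.02) did not pass, with a limma adjusted p of 0.132 over all genes. It passed in the fit of genes above the median level (adjusted p 0.0435) and with a trended, robust variance prior (0.0121). A near-identical copy, Cyp4a12b, had no probe set of its own, and how much of the signal it contributes is uncertain.

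The Cyp4a probe sets therefore differed by unequal amounts. Cyp4a14 relative to Cyp4a12a, taken on each array, was lower by 3.05 in transgenic than in wild-type cells, an 8.27-fold shift of the ratio. The ratio stood at -6.29, -5.81 and -6.16 in the transgenic and at -3.14, -2.95 and -3.03 in the wild-type samples on the log2 scale. The shared probe set 1424853_s_at relative to Cyp4a12a shifted by -2.20, or 4.60-fold, and Cyp4a14 relative to that shared probe set by -0.85, or 1.80-fold. The last of these ratios was -3.69, -3.18 and -3.53 in the transgenic and -2.68, -2.60 and -2.57 in the wild-type samples. All 3 pairs separated the genotypes without overlap. Each gave a two-sided exact permutation p of 0.1, also 0.1 after Benjamini-Hochberg adjustment over the 3 pairs, which is the smallest that 3 samples against 3 can give, so none could pass 0.05. Ratios between probe sets are also affected by the compression of low and high signals on arrays.

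Cyp4b1, which hydroxylates short and medium chain fatty acids and activates some toxins, had 6.16, 6.03 and 6.15 in the wild-type and 6.25, 6.23 and 6.50 in the transgenic samples (1416194_at). The transgenic values lay above the wild-type values, by 0.07 at the nearest and with the highest in replicate 3. The difference of 0.22 (SE 0.08, 95% confidence interval 0.02 to 0.41) did not pass, with a limma adjusted p of 0.131.

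Among the Cyp4f genes, Cyp4f15 fell and Cyp4f13 and Cyp4f14 did not pass. Cyp4f15 (1449316_at) gave 10.40, 10.46 and 10.38 in the wild-type and 9.999, 10.07 and 9.91 in the transgenic samples. The nearest samples of the genotypes were 0.31 apart, wider than the range within either genotype. Means were 10.42 ± 0.04 and 9.99 ± 0.08 (SD, n = 3 each), a decrease of 1.34-fold (difference -0.42, SE 0.06, 95% confidence interval -0.56 to -0.28) with a limma adjusted p of 0.00309. It stood at place 420 by decrease among all genes. The call was lost when a change of at least 1.2-fold was required (adjusted p 0.328).

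Cyp4f14, the leukotriene B4 omega-hydroxylase of mouse liver, gave 10.93, 11.05 and 10.97 in the wild-type and 11.11, 11.13 and 10.95 in the transgenic samples (1419559_at). The values overlapped, since transgenic replicate 3 was as low as the wild-type samples. The difference was 0.08 (SE 0.07, 95% confidence interval -0.08 to 0.24, limma adjusted p 0.502), an interval that allows a change of up to 0.24 on the log2 scale. Cyp4f13, a further gene of the Cyp4f cluster, gave 8.38, 8.48 and 8.40 in the wild-type and 8.56, 8.45 and 8.46 in the transgenic samples (1418767_at). These values overlapped as well, with a difference of 0.07 (SE 0.06, 95% confidence interval -0.07 to 0.21, limma adjusted p 0.494).

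Cyp4v3 was the member that rose, by a small amount and on both of its probe sets. The brighter, 1417071_s_at, gave 12.22, 12.43 and 12.25 in the wild-type and 12.55, 12.55 and 12.59 in the transgenic samples. The transgenic samples were tightly grouped above the wild-type ones, of which replicate 2 came nearest. The difference was 0.27 (SE 0.07, 95% confidence interval 0.11 to 0.43), or 1.202-fold, with a limma adjusted p of 0.0367. That call was lost when any array other than wild-type replicate 2 was left out (adjusted p 0.0845 to 0.114) and was kept without wild-type replicate 2 (0.0161). It was also lost without moderation of the variances (0.102). The other probe set, 1417070_at, gave 10.42, 10.57 and 10.55 in the wild-type and 10.97, 11.04 and 10.97 in the transgenic samples. Its difference was 0.48 (SE 0.06), or 1.39-fold, with an adjusted p of 0.00247 in the fit of all probe sets. In an alternative chosen after seeing the data, leaving out each array gave 0.43 to 0.51 on this probe set, with adjusted p from 0.00771 to 0.0124. The mean of both probe sets rose by 0.37.

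**Figure D2:**
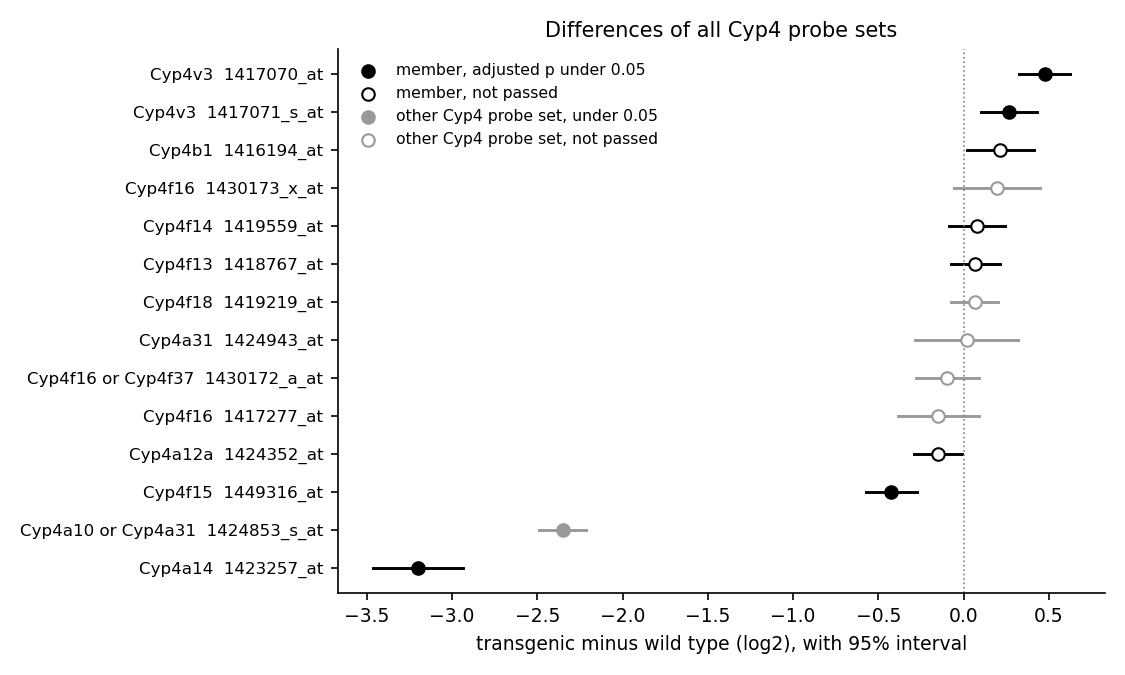
Difference between transgenic and wild-type hepatocytes (log2) for each Cyp4 probe set, with the 95% confidence interval from the limma fit of all probe sets as the bar. Cyp4a14 at -3.20 and the shared probe set 1424853_s_at at -2.35 lie far to the left of the others, and Cyp4v3 lies to the right of 0 on both probe sets. Filled points passed the threshold in that fit, and grey points are probe sets of no single member.

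Of 12 further Cyp4 genes, 3 were measured, and none passed by limma (0 also at an unadjusted p under 0.05). All 3 were under the array median. Cyp4f16 differed by -0.15 (adjusted p 0.392), Cyp4f18 by 0.07 (0.504) and Cyp4a31 by 0.02, as given above. Without transgenic replicate 2, Cyp4f16 passed as lower (adjusted p 0.0438). A second Cyp4f16 probe set, 1430173_x_at, gave 0.20, opposite in sign to the first, so its probe sets disagreed.

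In the reference gene order, the Cyp4a genes and Cyp4b1 lie in a cluster on chromosome 4. Cyp4f13, Cyp4f14, Cyp4f15 and Cyp4f16 lie in a cluster on chromosome 17, and Cyp4f18 was not among the measured genes found there. The nearest measured genes around the Cyp4a cluster, Stil, Tal1 and Pdzk1ip1 on one side and Efcab14, Mknk1 and Dmbx1 on the other, differed by -0.04 to 0.15. None of these 6 passed by limma, and 0 had an unadjusted p under 0.05. Around and within the Cyp4f cluster, Wiz, Rasal3, Pglyrp2, Zfp871, Zfp472, Zfp955a and Zfp955b differed by -0.24 to 0.15. None of these 7 passed by limma, with 1 (Rasal3) at an unadjusted p under 0.05. No measured gene that flanks the Cyp4a cluster was called. Within the cluster Cyp4a14 was called, and Cyp4a12a, Cyp4a31 and Cyp4b1 did not pass. The shared probe set 1424853_s_at, annotated to Cyp4a31 and Cyp4a10 of the same cluster, also fell, with a difference of -2.35.

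**Figure D3:**
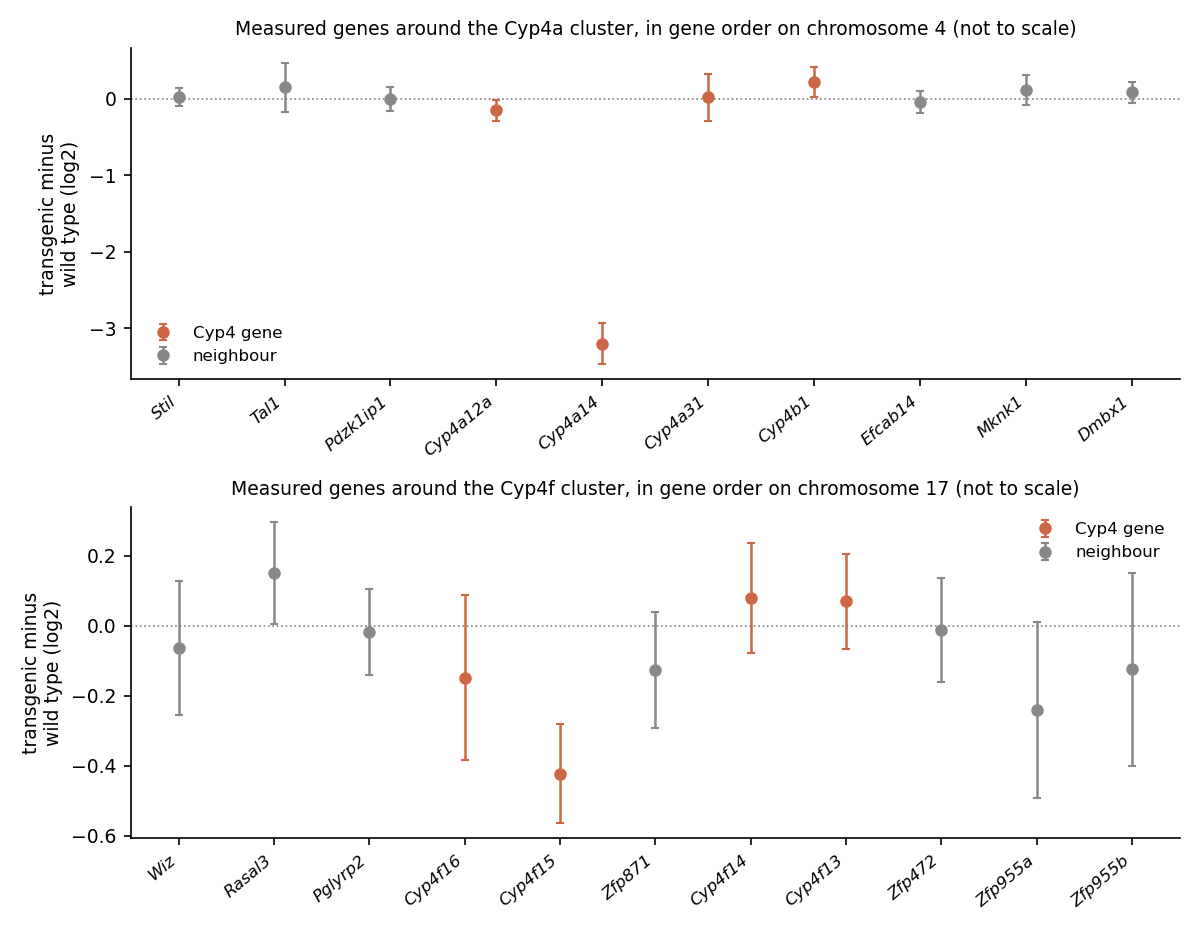
Difference between genotypes (log2) of the measured genes in and around the Cyp4a cluster of chromosome 4 and the Cyp4f cluster of chromosome 17, in reference gene order and not to scale, with 95% confidence intervals and a separate axis for each cluster. Cyp4a14 at -3.20 and Cyp4f15 at -0.42 are the genes called lower, and the flanking genes lie between -0.24 and 0.15.

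The genes whose pattern over the 6 arrays was most like Cyp4a14 were sought among the 92 other genes that passed with a difference of at least 1 in size. The highest Pearson correlations were those of Vnn1 (0.9998, difference -1.28), Tmem98 (0.9994, -1.07), Tmem267 (0.998, -1.36), Txnip (0.998, -1.04) and Pltp (0.998, -1.92). Tmem267 had means under the array medians in both genotypes, 3.86 in transgenic and 5.22 in wild-type cells. Vnn1 encodes pantetheinase, Txnip a thioredoxin-interacting protein and Pltp the phospholipid transfer protein. The probe set 1424853_s_at correlated with Cyp4a14 at 0.995. All 6 points come from the same arrays and the genotype difference makes up most of each correlation, so these are descriptions.

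Ppara, the gene of the receptor whose classical targets include Cyp4a genes, fell, as did 4 other genes listed with it. Ppara gave 8.71, 8.98 and 8.74 in the wild-type and 8.13, 7.99 and 8.01 in the transgenic samples, without overlap. It fell by 0.77 (SE 0.08, limma adjusted p 0.000748), with means of 8.81 ± 0.15 and 8.04 ± 0.08. Of 17 measured genes in this list, which holds Ppara, the related Pparg and genes of partners, 5 fell, 1 rose and 11 did not pass. The median difference was -0.21 against 0.01 for all genes. With a minimum change of 1.2-fold 3 fell and 0 rose. Pparg, the related receptor best known from fat cells, fell by 2.01, and Nrip1, a corepressor of nuclear receptors, fell by 0.87. Rxra, the binding partner of PPARA, fell by 0.38 (adjusted p 0.0061), a call that was lost with the mean of its probe sets (0.0658). The remaining calls, named after their values were seen, were Sirt1 (-0.30) and the coactivator gene Ncoa3 (0.43). The part of Ppara or of the other genes listed with it in the Cyp4 differences was not tested.

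Of 29 other PPARA targets measured, 14 fell, 0 rose and 15 did not pass, with a median difference of -0.20, and 8 fell when a change of at least 1.2-fold was required. Angptl4, an inhibitor of lipoprotein lipase, fell by 1.92 on its brightest probe set and by 0.69 without probe sets marked as matching several transcripts (limma adjusted p 0.0255). Pdk4, a kinase that holds back pyruvate oxidation, fell by 1.69, Vnn1 by 1.28 and G0s2, an inhibitor of triglyceride lipase, by 0.93 (limma adjusted p 5.56e-05). Each of these differences was smaller in size than that of Cyp4a14, a contrast that was not tested. The lists of genes were chosen with results of these data already known, so their counts are descriptions. The counts of this and the other lists in the main comparison stand against 9.05% of all genes that fell and 6.83% that rose. With a minimum change of 1.2-fold, 192 of all genes fell and 175 rose.

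The genes that supply fatty acids to the cell were lower in part. Of 15 measured, 5 fell, 0 rose and 10 did not pass, with a median of -0.16. Cd36, a fatty acid uptake receptor, fell by 2.51. Scd1, the stearoyl-CoA desaturase, fell by 0.45 (by 0.28 averaged over its probe sets) and Fasn, the fatty acid synthase, by 0.38. Acsl5, an acyl-CoA synthetase, fell by 0.22, a call lost in 9 of the alternatives. The count was 3 without transgenic replicate 1, transgenic replicate 3 or wild-type replicate 2, and 1 (Cd36) with a minimum change of 1.2-fold.

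In the main comparison, the enzymes that act after omega-hydroxylation were read against the 9.05% of all genes that fell and the 6.83% that rose. Of 8 measured dehydrogenases for omega-oxidation, 1 fell, 0 rose and 7 did not pass, with a median of -0.10. This count is near the share of all genes. The gene that fell was Aldh3a2, the fatty aldehyde dehydrogenase, with 10.06, 10.02 and 9.94 in the wild-type and 9.08, 9.30 and 8.98 in the transgenic samples. Its values did not overlap, and its difference was -0.89 (SE 0.09, limma adjusted p 0.00042). With a trended, robust variance prior, under which 1504 of all genes fell and 1112 rose, 4 of these dehydrogenases fell and 1 rose. The latter was Aldh9a1 (difference 0.17), which passed as higher in 3 of the 17 alternatives. Of 9 genes of peroxisomal dicarboxylate oxidation, 4 fell, 0 rose and 5 did not pass, with a median of -0.24. They were the thiolase Acaa1b (-0.41), the bifunctional enzymes Ehhadh (-0.40) and Hsd17b4 (-0.28) and the peroxisomal transporter Abcd3 (-0.31). Without transgenic replicate 1 or transgenic replicate 3 the count was 2, and 0 fell when a change of at least 1.2-fold was required. Hsd17b4 lost its call in 7 of the 17 alternatives and Abcd3 in 5. Of 4 redox partners of P450 enzymes, Cyb5b, a cytochrome b5 of the outer mitochondrial membrane, fell by 0.32 (adjusted p 0.0110), a call lost with a minimum change of 1.2-fold. The others gave -0.09 (Cyb5r3), -0.05 (Pgrmc1) and -0.04 (Cyb5a), and none of these passed.

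**Figure D4:**
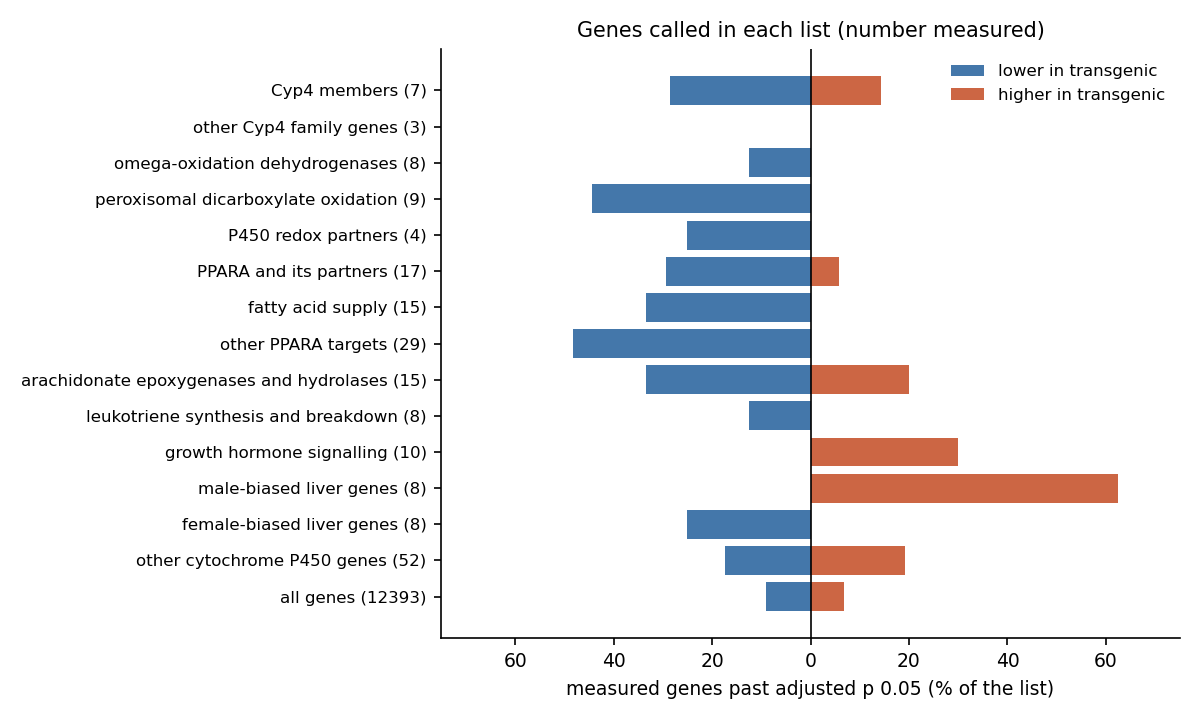
Share of the measured genes of each list (percent of the list) that passed the limma threshold, with bars to the left for genes lower and to the right for genes higher in transgenic hepatocytes, and the number measured in brackets. The lists of other PPARA targets (14 of 29) and of peroxisomal dicarboxylate oxidation (4 of 9) have bars to the left only, the male-biased genes (5 of 8) to the right only, and the Cyp4 members (2 lower and 1 higher of 7) to both sides.

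Arachidonic acid, a substrate of Cyp4a and Cyp4f enzymes, is also epoxidised by Cyp2c and Cyp2j enzymes. Of 15 measured genes for these epoxygenases and the epoxide hydrolases, 5 fell, 3 rose and 7 did not pass, with a median of -0.01. With a minimum change of 1.2-fold 2 fell and 1 rose. The changes went both ways within the Cyp2c genes. Cyp2c23 rose by 2.52, from 9.11, 9.26 and 9.13 in the wild-type to 11.72, 11.72 and 11.63 in the transgenic samples. Cyp2c39 fell by 2.50, Cyp2c38 by 1.63 and Cyp2c55 by 0.51. Cyp2c genes are close paralogs, and the Cyp2c23 probe set has an ID that marks it as matching several transcripts, so the share of each gene is uncertain. Of 8 genes of leukotriene synthesis and breakdown, the substrate side of the Cyp4f enzymes, 1 fell, 0 rose and 7 did not pass. This count is near the 9.05% of all genes that fell. The gene that fell was Ptgr1, which inactivates leukotriene B4, with a difference of -0.29 and a limma adjusted p of 0.0456. The count was 0 without any one transgenic sample, and without wild-type replicate 1 or 3. Lta4h, which makes leukotriene B4, differed by 0.15 and did not pass.

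Of 52 other P450 genes measured, 9 fell, 10 rose and 33 did not pass, with a median of 0.06, while 3 fell and 3 rose with a minimum change of 1.2-fold. These calls include all those counted for the epoxygenases above, and those of Cyp7b1 and Cyp2b10 below, so the counts are not separate. Cyp7a1, which catalyses the first step of bile acid synthesis, fell by 1.05. The Cyp4 members, with 2 lower and 1 higher of 7, were likewise divided, and no difference between these shares was tested.

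Cyp4a12a and Cyp4a14 differ by sex in mouse liver, Cyp4a12a being higher in males and Cyp4a14 in females, under the control of growth hormone. Sex was not stated in the sources at hand. Of 8 other male-biased liver genes measured, 5 rose, 0 fell and 3 did not pass, with a median of 0.39. C8b, a complement component, rose by 0.61, the elongase gene Elovl3 by 0.55, the oxysterol hydroxylase gene Cyp7b1 by 0.50 and the steroid enzyme gene Hsd3b5 by 0.47. Gstp1, named after its value was seen, also rose, by 0.30. All 5 passed whichever single array was left out, and 2 (C8b and Elovl3) passed when a change of at least 1.2-fold was required. Of 8 female-biased genes, 2 fell, 0 rose and 6 did not pass, with a median of -0.13, and 6 of the 8 were under the array median. The genes that fell were Acot3 (-0.47), which is also in the list of PPARA targets, and Cyp2b10 (-0.44). Both were read by probe sets marked as matching several transcripts. Without such probe sets 0 female-biased genes fell, Acot3 giving no value and Cyp2b10 losing its call (limma adjusted p 0.108). Neither Acot3 nor Cyp2b10 passed with a minimum change of 1.2-fold. Of 10 genes of growth hormone signalling, 3 rose, 0 fell and 7 did not pass, namely the repressor gene Bcl6 by 0.84 and the feedback inhibitor genes Cish by 0.37 and Socs2 by 0.22. Only 1 rose without transgenic replicate 3 or wild-type replicate 3, or with a minimum change of 1.2-fold, and the call of Socs2 was lost when any array other than wild-type replicate 2 was left out. The part of sex, or of these genes, in the Cyp4 differences was not tested.

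As a check of the labels, Mtdh was higher in the transgenic samples, at 10.64 ± 0.21 against 8.72 ± 0.07 (difference 1.92, limma adjusted p 2.04e-05). Averaged over all Mtdh probe sets it was 0.28 (adjusted p 0.0116). Correlations across genes, which are not independent replicates, were 0.9976 to 0.9982 within a genotype and 0.9933 to 0.9940 between them. Hepatocyte markers were bright on every array, none of 12 under the array median, with a mean log2 signal of 13.12 to 13.18 in transgenic and 13.18 to 13.23 in wild-type samples. Of these 12, G6pc fell by 0.86 and Ahsg rose by 0.21, the latter call being lost whichever array was left out. Some markers of other liver cells were higher in the transgenic samples. Of 11 Kupffer cell and macrophage markers 2 rose (Marco by 0.69 and C1qc by 0.35) and 0 fell, with 5 higher at an unadjusted limma p under 0.05. None of the 11 was under the median, and their mean was 6.90 to 6.98 in transgenic and 6.68 to 6.81 in wild-type samples. Marco lost its call without transgenic replicate 1, wild-type replicate 2 or wild-type replicate 3, and C1qc lost its call without transgenic replicate 1, transgenic replicate 2, wild-type replicate 1 or wild-type replicate 2. Of 10 markers of sinusoidal endothelium 2 rose (Clec4g by 0.50, or 0.33 averaged over its probe sets, and Kdr by 0.41), with means of 6.03 to 6.14 against 5.87 to 5.996. At an unadjusted limma p under 0.05, 3 of the endothelial markers were higher. Kdr lost its call without transgenic replicate 2, transgenic replicate 3, wild-type replicate 2 or wild-type replicate 3. None of these 4 Kupffer cell and endothelial calls was kept without moderation of the variances or with a minimum change of 1.2-fold. Of 9 stellate cell markers 0 passed by limma (3 were higher at an unadjusted p under 0.05), with means of 5.46 to 5.49 against 5.33 to 5.42, and 1 rose without wild-type replicate 3. Of 5 cholangiocyte markers Epcam rose by 1.52, 2 were higher at an unadjusted limma p under 0.05, and 3 were under the median. Without wild-type replicate 1, 2 of them rose. Neutrophil (7) and adipocyte (2) markers were all under the median and 0 passed by limma, also 0 at an unadjusted p under 0.05. The 3' minus 5' signal of the Gapdh control probe sets was 0.10 to 0.11 in transgenic and 0.01 to 0.13 in wild-type samples, and that of Actb 0.84 to 0.92 and 0.87 to 0.93. The part of these cells in the differences of the Cyp4 genes was not tested.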

How the data were processed

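The authors deposited log2 signals for each probe set. Per the submitters' processing notes, these come from the RMA method of Affymetrix Expression Console, with no version stated. RMA subtracts background, gives all arrays the same distribution and summarises probes, so values are relative to other genes, and differences at very low or high signal are compressed. Of 22690 probe sets, 64 were controls. In the platform annotation 20380 had 1 gene symbol, 691 several and 1555 none. Each gene was read from its brightest probe set with 1 symbol over the 6 arrays, and 12369 of the 12393 gene IDs matched the GRCm38.p6 gene table, used for gene order. The genotypes, 3 arrays each, were compared with limma (3.58.1, R 4.3.3, data.table package, 1.17.8; lmFit and eBayes), two-sided, over all genes, with Benjamini-Hochberg adjustment and a threshold of 0.05; a further fit covered all 22626 probe sets. The fit was tested on simulated data. Other steps used Python 3.11.15, numpy 2.4.6, pandas 2.3.3, scipy 1.17.1 and matplotlib 3.10.9.

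The members and lists were chosen with earlier results of these data known. Named are the members, other Cyp4 genes, up to 4 genes with the smallest p of each list, the 3 nearest measured genes on either side of each cluster (with genes lying within it), the 5 genes most like Cyp4a14, and Mtdh. As Cyp4a10 has no probe set of its own, the planned pairs with it used 1424853_s_at, and likeness was sought for Cyp4a14 alone. Alternatives varied the probe set chosen, the filter on dim genes, the scaling, the variance model, a minimum fold, a replicate block and the arrays included, leaving out each in turn. Precision is limited by the number of arrays.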

Additional observations from a re-analysis of the deposited data

How the results depend on the processing

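The call of Cyp4a14 was kept in all 17 alternatives (differences from -3.32 to -3.08, highest adjusted p 0.00416 by limma) and that of Cyp4f15 in all but the minimum fold of 1.2. No called difference changed its direction among the results recomputed here. Of the members, 2 fell in the main comparison and 1 fell with a minimum fold of 1.2, and 2 fell whichever array was left out. The 1 member that rose, Cyp4v3, gave 0 risen without moderation and with a minimum fold of 1.2, and 0 to 1 when each array was left out. Over all genes, 1121 fell and 846 rose. Without moderation these counts were 711 and 560, with a minimum fold of 1.2 they were 192 and 175, and leaving out each array gave 727 to 961 and 540 to 739. The shifts of the Cyp4a14 to Cyp4a12a ratio ran from -3.19 to -2.95 when each array was left out. Those of Cyp4a14 to 1424853_s_at ran from -0.99 to -0.74, and those of 1424853_s_at to Cyp4a12a from -2.22 to -2.16. The pairs with 1424853_s_at give no value once probe sets ending in _s_at are left out. Of 680 recomputed counts of the gene lists, 607 stayed within 1.5 times the main count and 73 did not.

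Samples with the same replicate number did not deviate together (correlations of -0.01, -0.01 and 0.10), so the numbers are not taken to pair the samples. With the replicate block, 2 members fell, 0 rose (Cyp4v3, adjusted p 0.0677), and 865 genes fell and 640 rose. The cause of these shifts was not tested.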
